A study of Mus musculus with 16 samples.

Results

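The Sham group of this mouse series is the set of 4 RNA-seq libraries whose gene levels are described here, out of 16 libraries in all. They were chosen by their titles, Sham_1 to Sham_4, and are called replicates 1 to 4. The 13982 genes of the deposited table were ranked within these libraries, and no other group was compared with them. The mice were C57BL/6 and the Sham libraries are labelled as untreated; the other groups had middle cerebral artery occlusion, with or without injected plasma exosomes. Age and sex are not given in the labels, nor is it said whether a library is 1 mouse or a pool. All 4 libraries share the same handling: cortex was enzymatically digested, cells stained for CD45 and CD11b were sorted, and their cDNA was amplified. The protocol describes the tissue as infarct cortex in general terms and does not say which cortex was taken from Sham mice. The cells are called Sham microglia below after their label; a state of rest was not measured in itself.

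Microglia are the resident macrophages of the brain parenchyma. They arise early in development from yolk sac precursors, maintain themselves locally and depend on signalling through the CSF1 receptor and TGF-beta. In the undisturbed cortex they survey their surroundings with fine processes, sense nucleotides released by other cells, clear debris through lysosomes and tag synapses with complement.

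Levels are given as FPKM, fragments scaled to transcript length and to the fragments of the library. That unit was inferred, and TPM of part of the genes, which is also scaled to length, cannot be told apart from it by the files. A value after ± is the SD over 4 libraries (n = 4). Summed over all genes, the libraries held 758283 to 818774 FPKM. The files give no read counts, so depth is unknown and no counting interval can be given.

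The 5 marker genes given for these cells were all present in all 4 libraries. Cst3, which encodes the secreted cysteine protease inhibitor cystatin C, had 117893, 139126, 120712 and 122161 FPKM in replicates 1 to 4. P2ry12, the ADP receptor that guides microglial processes, had 5377, 3998, 4323 and 3156 FPKM. Siglech, a sialic acid-binding lectin, had 1978, 2334, 2217 and 1969.7 FPKM, a span of 1.19 times between the lowest and highest library. Cst3 and Siglech were the even ones, while P2ry12 was highest in replicate 1 and lowest in replicate 4. Cx3cr1, the receptor for the neuronal chemokine fractalkine, had 845, 886, 893 and 1354 FPKM. Tmem119, a transmembrane protein used to tell microglia from other macrophages, had 207, 532, 361 and 726 FPKM. The last 2 were lowest in replicate 1 and highest in replicate 4, and Tmem119 spread 3.51 times. By mean level the genes ranked 1 (Cst3), 13 (P2ry12), 38 (Siglech), 94 (Cx3cr1) and 234 (Tmem119) among all genes. Each of the 4 libraries kept the order Cst3, P2ry12, Siglech, Cx3cr1, Tmem119. The genes of the proteins sorted on were present as well, with Ptprc (CD45) at 173, 89.8, 123 and 82.9 FPKM and Itgam (CD11b) at 82.8, 100.01, 88.0 and 121 FPKM. Their libraries overlap, and Ptprc was above Itgam in 2 of 4.

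The promoter windows of 5 abundant genes are shown because the genes share a high level and 3 of them hold the PU.1-type core, the DNA word of the ETS factor that sets macrophage identity. They are the bases before the RefSeq start site on build GRCm38.p6, 5′ to 3′ on the strand of the gene, with each GAGGAA in capitals. Cst3 is on the minus strand at chr2:148875577-148875762, and the 64 bases nearest its start site, which lie in an annotated transcript, are not printed.
Cst3: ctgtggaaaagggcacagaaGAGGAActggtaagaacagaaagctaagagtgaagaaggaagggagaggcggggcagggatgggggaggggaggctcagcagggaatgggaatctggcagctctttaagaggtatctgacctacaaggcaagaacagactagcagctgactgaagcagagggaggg
C1qb, a chain of the complement starter C1q, is on the minus strand at chr4:136886201-136886450.
C1qb: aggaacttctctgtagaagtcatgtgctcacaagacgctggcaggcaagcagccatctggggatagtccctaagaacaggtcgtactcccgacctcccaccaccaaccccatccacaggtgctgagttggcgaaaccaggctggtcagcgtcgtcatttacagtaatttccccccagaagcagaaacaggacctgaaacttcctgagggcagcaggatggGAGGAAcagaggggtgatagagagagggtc
Ctss, the lysosomal protease cathepsin S, is on the plus strand at chr3:95526536-95526785.
Ctss: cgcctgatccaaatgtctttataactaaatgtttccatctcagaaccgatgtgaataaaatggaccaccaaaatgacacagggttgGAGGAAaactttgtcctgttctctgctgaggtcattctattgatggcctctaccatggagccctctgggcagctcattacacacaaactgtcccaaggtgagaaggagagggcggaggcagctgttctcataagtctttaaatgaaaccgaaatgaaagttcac
P2ry12 is on the minus strand at chr3:59262986-59263235 and Siglech on the plus strand at chr7:55767934-55768183.
P2ry12: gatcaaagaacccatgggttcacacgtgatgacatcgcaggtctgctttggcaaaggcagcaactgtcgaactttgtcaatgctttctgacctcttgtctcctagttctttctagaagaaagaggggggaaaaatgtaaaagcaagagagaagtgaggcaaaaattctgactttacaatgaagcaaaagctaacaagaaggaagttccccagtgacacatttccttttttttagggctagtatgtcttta
Siglech: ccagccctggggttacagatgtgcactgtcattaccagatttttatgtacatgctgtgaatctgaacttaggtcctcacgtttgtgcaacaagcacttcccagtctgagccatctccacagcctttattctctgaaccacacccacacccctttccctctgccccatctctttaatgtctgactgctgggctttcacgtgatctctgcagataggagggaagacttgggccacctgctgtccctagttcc
The core starts 230 bases before the start site in Cst3, 164 in Ctss and 30 in C1qb, and no GAGGAA in either direction is in the windows of P2ry12 and Siglech. The bases after the P2ry12 start site used were not found in an annotated transcript of the gene, so its window may not be its promoter. The window of C1qc, not shown, holds the core 193 bases before its start site. Windows were chosen partly by this core, so 3 of 5 is not a rate. GAGGAA was searched on both strands of the 250 bases before the start. It was in 22.4% of the windows of 11043 measured genes, 30.1% of 73 windows of the 100 most abundant genes and 30% of 30 windows of homeostatic microglia genes. The TATA word TATAAA, searched the same way, was in 7.38% of all windows, 16.4% of those of the 100 most abundant genes, 16.7% of those of the homeostatic genes and 14.2% of 1158 windows of genes listed at 0 in all 4 libraries. The median number of CpG in the window was 5.5 for the homeostatic genes, 6 for the genes at 0, 15 for the 100 most abundant genes and 15 for all. A match is a description of these letters and no evidence that a factor binds.

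RNA of Sham microglia was concentrated in few genes. The median gene had a mean of 4.99 FPKM, 964 genes had at least 100 FPKM, and 93 had at least 1000 FPKM. Cst3 alone held 16.0% ± 0.76 of summed FPKM and was 4.19 times the second gene, Tmsb4x. The 10 most abundant genes held 29.1% ± 1.63, the top 25 36.2% ± 1.59 and the top 100 51.0% ± 1.74. Replicates 1 to 4 needed 84, 81, 89 and 108 genes to reach 50% of their sum, so replicate 4 was the least concentrated. At the other end, 1588 genes were listed at 0 in all 4 libraries and 3350 were below 1 FPKM in all 4. A level of at least 1 FPKM in all 4 was met by 7619 genes.

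**Figure D1:**
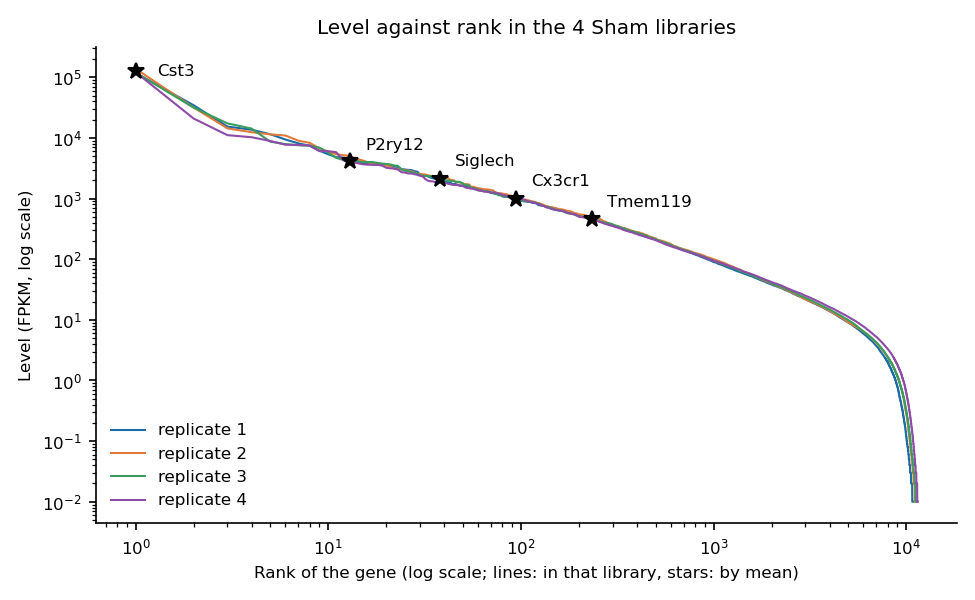
Level in FPKM against the rank of each gene, both on log scales, with 1 line for each of the 4 Sham libraries and stars for the means of the 5 markers. Cst3 stands 4.19 times above the next gene, the 4 lines run close together, and replicate 4 lies highest in the low range.

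Behind Cst3, the most abundant genes were those of the cytoskeleton, antigen presentation, lysosome, complement and receptor adaptors. Tmsb4x, the actin monomer-binding thymosin beta 4, had 34716, 31860.5, 31722 and 20977 FPKM, and replicate 4 was the low one. B2m, the light chain of MHC class I, had 15407, 14407, 17416 and 7523 FPKM and was again lowest in replicate 4. Ctss had 13707, 12454, 14308 and 10298 FPKM, highest in replicate 3 and lowest in replicate 4. Tyrobp, the DAP12 adaptor of TREM2, had 11519, 11474, 8692 and 7654 FPKM, above Fcer1g, the Fc receptor gamma chain, at 8151, 8333, 6939 and 6063 FPKM. Tyrobp exceeded Fcer1g by 1.25 to 1.41 times in every library. C1qb had 6171, 10975, 7929 and 11128 FPKM, C1qc 2782, 2929.5, 3786 and 7738 FPKM and C1qa 1877, 5056, 3665 and 6081 FPKM. C1qb was above both partners in all 4 libraries, whereas C1qc and C1qa changed places and could not be ranked. Ribosomal Rps27 (6979 ± 2129.7 FPKM) and Rps29 (3769.9 ± 339 FPKM), actin Actb (4787 ± 1248 FPKM), ubiquitin Ubb (4186 ± 689 FPKM), cyclophilin Ppia (3932 ± 878 FPKM) and histone H3f3b (3734 ± 240.4 FPKM) followed. The ferritin chains Ftl1 (4480.4 ± 1350.0 FPKM) and Fth1 (3862 ± 515 FPKM) exchanged places, with Fth1 the higher in 2 of 4 libraries. The membrane protein Itm2b, at 2953, 3094, 3058 and 3023 FPKM, was the most even of the top 25.

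Of the 24 pairs of neighbours in the top 25, 4 kept their order in all 4 libraries: Cst3 above Tmsb4x, Tmsb4x above B2m, Ctss above Tyrobp and Rps27 above Actb. The other neighbours did not differ beyond the spread of the libraries. Among single libraries, 17 genes were in the top 25 of all 4 and 35 in the top 25 of at least 1. For the top 100 these numbers were 73 and 133. Actb, Ppia, Ubb, Ftl1, Fth1, Tmsb4x, H3f3b and ribosomal protein genes have near-identical processed copies in the genome, so their levels are uncertain by whatever the counting assigned to the copies.

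**Figure D2:**
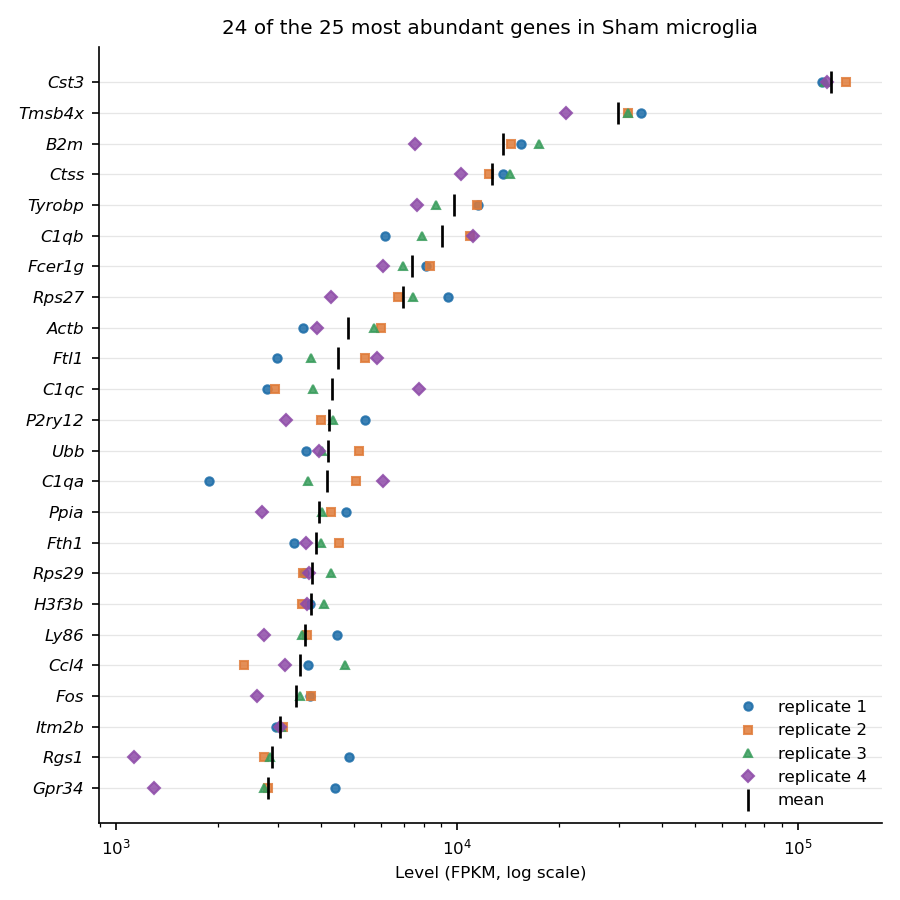
Level in FPKM on a log scale of 24 of the 25 genes with the highest mean, with a symbol for each of the 4 Sham libraries and a bar for the mean. Cst3 is apart from the rest, most rows overlap their neighbours, and Rgs1 and Gpr34 have the largest ratios of highest to lowest library, with replicate 4 low and replicate 1 high.

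Homeostatic microglia genes were high as a list. All 40 listed genes were measured and all 40 had a mean of at least 10 FPKM, against 36.3% of all genes. Their median was 726 FPKM, against 4.99 FPKM for all genes, and 18 of 40 had at least 1000 FPKM. The lowest was Nav3, a cytoskeletal guidance protein, at 19.5, 20.1, 21.1 and 36.7 FPKM. Together they held 25.8% ± 1.40 of summed FPKM, or 9.85% ± 0.818 without Cst3. The list was chosen for these cells, so its height is a check of the label.

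Within this list the libraries fell in a pattern. Replicate 4 was the highest library for 23 of 40 genes and replicate 1 the lowest for 26 of 40, or 57.5% and 65%. Among all 5071 genes of at least 10 FPKM these shares were 32.5% and 33.9%. Bin1, a membrane-bending protein, had 33.4, 105, 121 and 195 FPKM, 5.85 times higher in replicate 4 than in replicate 1. Slc2a5, the fructose transporter, had 72.6, 202, 102 and 253 FPKM, and Crybb1, a crystallin, 205, 364, 257 and 663 FPKM. These were low in replicate 1 and high in replicate 4, with the other 2 libraries between. Gpr34, a lysophosphatidylserine receptor, ran the other way at 4385, 2803, 2726 and 1292 FPKM, as did Hpgd, a prostaglandin-degrading enzyme, at 582, 514, 409 and 318 FPKM. The GC content of the transcripts moved with this. GC was 55.3% for Bin1, 53.2% for Slc2a5 and 61.8% for Crybb1, and 37.1% for Gpr34 and 40.5% for Hpgd. Over the 40 genes, GC and the log2 difference of replicate 4 from replicate 1 had a Pearson r of 0.759 and a Spearman rho of 0.713, across genes that share these libraries. The part of GC in these spreads was not tested. Olfml3, a secreted scaffold protein, Selplg, the P-selectin ligand, Sparc, a matrix protein, and Fcrls, an Fc receptor-like molecule, had 1341, 1336, 1231 and 1141 FPKM on average, each lowest in replicate 1 and highest in replicate 4. Entpd1, the ectonucleotidase CD39 that degrades ATP, was even at 118, 136, 123 and 131 FPKM.

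Of 294 measured genes listed as receptors or their adaptors, 119 (40.5%) had a mean of at least 10 FPKM, close to the 36.3% of all genes. The share with at least 1000 FPKM was 3.74% for the receptors and 0.665% for all genes. Of 14 measured purinergic and adenosine receptors 6 had at least 10 FPKM, 3 at least 100 FPKM and 1, P2ry12, at least 1000 FPKM. Besides P2ry12, P2ry13, a further ADP receptor, had 747, 542, 628 and 573 FPKM, and P2ry12 was 5.51 to 7.38 times above it. The UDP receptor P2ry6 had 58.2, 145, 109 and 146 FPKM, with replicate 1 low. The ATP-gated channels P2rx7 and P2rx4 had 37.3 ± 18.2 and 12.5 ± 6.63 FPKM, and the adenosine receptor Adora3 32.2 ± 14.4 FPKM. P2ry1, P2ry2, P2ry14 and Adora1 were listed at 0 in all 4 libraries.

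Among other G protein-coupled receptors, 15 of 55 reached 10 FPKM, against 36.3% of all genes. Gpr34 led. The macrophage marker Adgre1 (F4/80) had 121, 158, 124 and 155 FPKM and the oxysterol receptor Gpr183 99.0, 108, 138 and 157 FPKM, and their libraries overlapped. The lysophosphatidic acid receptor Lpar6 had 115 ± 23.8 FPKM, the medium-chain fatty acid receptor Gpr84 87.4 ± 22.7 FPKM and the adhesion receptor Adgrg1 79.3 ± 33.7 FPKM. Lpar1, S1pr3, Ptger2 and Gpr55 were listed at 0 in all 4 libraries. Of 25 chemokine and chemoattractant receptors 8 reached 10 FPKM. Cx3cr1 led. The C3a receptor C3ar1 had 145, 157, 112 and 99.3 FPKM and the chemerin-binding Ccrl2 130.5, 124, 126 and 126 FPKM. Ccrl2 was even to 2.04% (coefficient of variation, the SD as a share of the mean). The C5a receptor C5ar1 had 18.8, 50.4, 15.4 and 61.6 FPKM, high in replicates 2 and 4. Ccr2, the monocyte receptor, had 6.53, 4.71, 2.08 and 0.65 FPKM, and Ccr7, Cxcr5 and Fpr2 were listed at 0.

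Of 60 Fc, C-type lectin, Siglec and Trem receptors 31 had at least 10 FPKM and 7 at least 1000 FPKM. The shares over all genes were 36.3% and 0.665%. Fcgr3, a low-affinity IgG receptor, had 1596, 2274, 1629.6 and 1851 FPKM and Trem2, a lipid-sensing receptor, 898, 1520.3, 1035 and 1693 FPKM. Cd300c2 had 989.9, 1172, 1190.4 and 1141 FPKM and the inhibitory Fcgr2b 528, 471, 513 and 504 FPKM, both even. The inhibitory Lair1 had 321 ± 32.4 FPKM. Sirpa, the receptor for the signal CD47, had 141, 293, 241 and 587 FPKM, low in replicate 1 and high in replicate 4, and Cd48 641, 284, 227 and 206 FPKM, the opposite. Trem1, Clec4e, Clec12a, Siglec1 and Ly75 were below 1 FPKM in all 4 libraries. Of 27 pattern recognition genes, 14 reached 10 FPKM. The accessory proteins Ly86 (4444, 3645, 3519.6 and 2727 FPKM) and Ly96 (882, 510.1, 639 and 194 FPKM) led, both high in replicate 1 and low in replicate 4. Cd14 had 274 ± 47.6 FPKM and Tmem173, the DNA-sensing adaptor STING, 255 ± 73.0 FPKM. Of the Toll-like receptors Tlr7 had 151, 100.4, 112 and 73.3 FPKM, Tlr2 14.1, 33.6, 42.5 and 56.3 FPKM and Tlr4 28.4, 19.3, 18.3 and 16.4 FPKM. Tlr7 was above Tlr2 and Tlr4 in all 4 libraries. Tlr8 and Nod2 were below 1 FPKM in all 4 and the inflammasome sensor Nlrc4 was listed at 0.

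Of 66 cytokine and growth factor receptors 29 reached 10 FPKM, against 36.3% of all genes. Csf1r, on which microglia depend, had 519, 628, 578 and 1039.8 FPKM, with replicate 4 high. The interferon-gamma receptor chain Ifngr1 had 352, 374, 330.1 and 479.7 FPKM. The TGF-beta receptors Tgfbr1 and Tgfbr2 had 546, 282, 396 and 303 and 105, 84.7, 81.2 and 77.9 FPKM, and Tgfbr1 was 3.33 to 5.19 times the higher. The interferon receptor chains Ifnar2 and Ifnar1 had 179.9 ± 37.0 and 7.45 ± 3.02 FPKM, and the IL-10 receptor chains Il10ra and Il10rb 108 ± 31.5 and 98.8 ± 22.3 FPKM. Kit, Flt3, Il18r1, Il27ra and Igf2r were below 1 FPKM in all 4. Among 38 phagocytic, scavenger and lipoprotein receptors 15 reached 10 FPKM. The apoptotic cell receptor Mertk had 197, 115, 212 and 193 FPKM, whereas its relative Axl had 1.78, 2.31, 3.26 and 0.01 FPKM. The junctional molecule F11r had 326 ± 64.0 FPKM and the integrin chain Itgb5 217 ± 86.4 FPKM. Cd36, Cd163 and Itgal were below 1 FPKM in all 4, and Timd4 was listed at 0. Of 9 measured neurotransmitter receptors Gabbr1, a GABA-B subunit, reached 10 FPKM, at 4.17, 5.95, 19.2 and 21.4 FPKM, high in replicates 3 and 4.

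**Figure D3:**
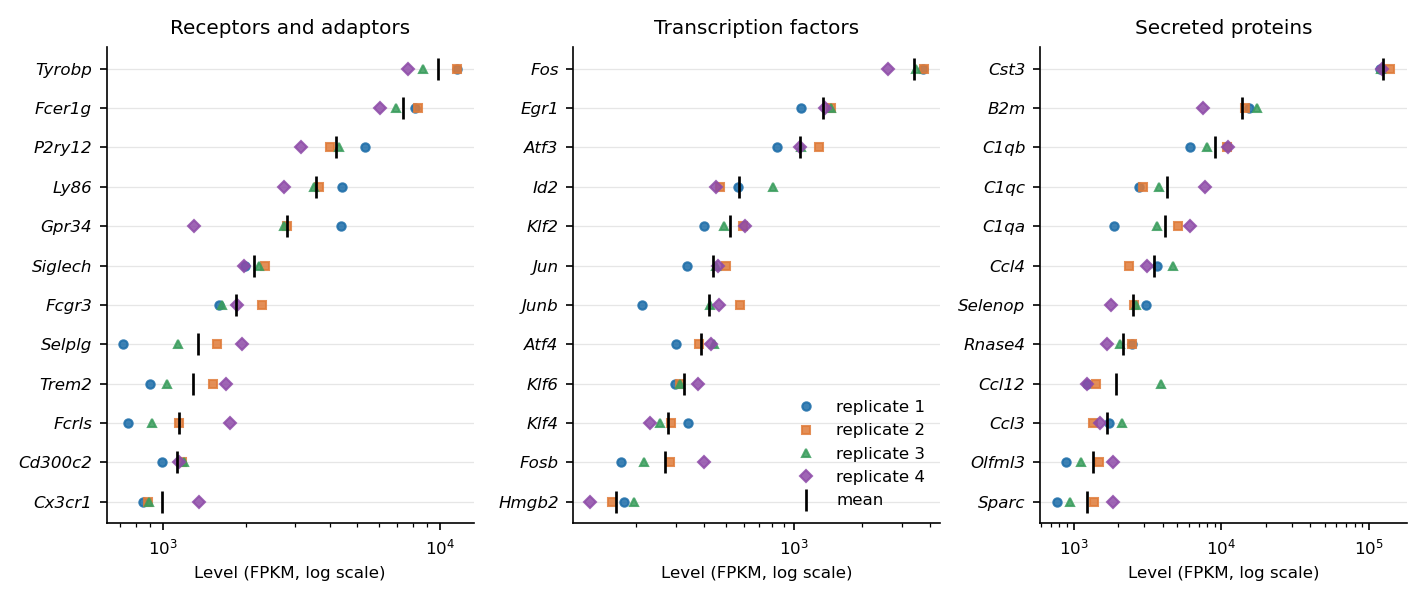
Level in FPKM on a log scale of the 12 listed receptors and adaptors, transcription factors and secreted proteins with the highest means, with a symbol for each of the 4 Sham libraries and a bar for the mean. Fos, Egr1 and Atf3 keep their order in all 4 libraries, 5 of 11 pairs of neighbouring receptors keep their order in all 4, and Ccl12 is spread by replicate 3.

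Of 233 measured transcription factors 100 (42.9%) had at least 10 FPKM, against 36.3% of all genes, and the most abundant were immediate early factors. Fos, an AP-1 subunit, had 3708, 3742, 3462 and 2599 FPKM, Egr1 1069, 1462, 1453 and 1362 FPKM and the stress factor Atf3 839.9, 1289, 1074 and 1059 FPKM. Fos was above Egr1 and Egr1 above Atf3 in all 4 libraries. The helix-loop-helix inhibitor Id2 followed at 564, 468, 803 and 452 FPKM and was high in replicate 3. Klf2 had 399, 591, 487 and 607 FPKM, and the AP-1 subunits Jun and Junb 335, 499, 453 and 461 and 212, 576, 425 and 465 FPKM. Klf2 was above Jun in all 4 libraries, Jun and Junb changed places, and Junb was low in replicate 1. Atf4 had 389 ± 64.0 FPKM, Klf6 324 ± 33.7 FPKM, Klf4 278 ± 47.3 FPKM and Fosb 268 ± 99.9 FPKM.

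Of 30 factors known for microglial and macrophage identity 22 had at least 10 FPKM, against 36.3% of all genes. Their median was 24.7 FPKM. The list of AP-1, ATF and CREB factors had 18 of 30 and a median of 24.4 FPKM. Id2 and Klf2, given above, led the identity list. Maf had 200.2, 117, 150.1 and 150.4 FPKM and was highest in replicate 1. Mef2a had 176, 88.7, 133 and 107 FPKM and Mef2c 139.8, 107, 133 and 117 FPKM. Cebpa, a myeloid factor, had 136, 122, 112 and 108 FPKM and Irf8 71.2, 107, 107 and 159 FPKM. All of these lay in 1 band whose libraries overlap. Sall1, which marks microglia among macrophages, was even at 112, 96.0, 105 and 93.3 FPKM. Spi1, which encodes PU.1, had 71.2, 33.4, 62.0 and 147 FPKM, above Sall1 in replicate 4 alone. Bhlhe41 had 93.1 ± 28.1 FPKM, Ikzf1 49.9675 ± 9.16 FPKM and Runx1 13.4 ± 2.67 FPKM. Tfec, the liver X receptor Nr1h3, Bhlhe40 and Spic were below 1 FPKM in all 4 libraries and Gata2 was listed at 0. Nuclear receptors were low as a list, with 2 of 27 at 10 FPKM. The glucocorticoid receptor Nr3c1 had 42.1, 31.2, 40.2 and 45.2 FPKM and the liver X receptor Nr1h2 13.2, 10.6, 18.4 and 10.7 FPKM, while Pparg, Vdr and Rxrg were listed at 0. Among 24 NF-kB, STAT, IRF and NFAT factors, 14 reached 10 FPKM, with Irf1 at 51.0 ± 12.4 FPKM, Irf5 at 40.0225 ± 17.2 FPKM and Rela at 32.1 ± 9.32 FPKM.

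Immediate early and stress-induced genes were abundant beyond the transcription factors. Of 42 listed genes 34 had at least 10 FPKM, against 36.3% of all genes, with a median of 306 FPKM. The inflammatory chemokines Ccl4 and Ccl3 had 3658, 2375, 4712 and 3145 and 1743, 1354, 2135 and 1509.8 FPKM, both highest in replicate 3 and lowest in replicate 2. Rgs1, a brake on G protein signalling, had 4831, 2714, 2832 and 1133 FPKM. Zfp36, which destabilizes cytokine mRNA, had 1649, 3414, 2884 and 2465 FPKM and the phosphatase Dusp1 1737, 2178, 1899 and 1644 FPKM. The chaperones Hspa8 and Hspa5 had 768 ± 94.2 and 575 ± 36.0 FPKM, and the NF-kB inhibitor Nfkbia 542 ± 111 FPKM. In contrast Nr4a1 had 0.49, 0.85, 7.91 and 6.02 FPKM, Egr2 3.84, 3.13, 8.27 and 6 FPKM, and Nr4a2, Nr4a3 and Hspa1b averaged 0.603, 0.085 and 0.72 FPKM. The list held 3.12 to 3.67% of summed FPKM in the 4 libraries. All 4 libraries came from digested and sorted tissue, so levels before digestion were not measured.

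Of 159 measured secreted proteins 60 (37.7%) had at least 10 FPKM, close to the 36.3% of all genes, and 12 (7.55%) at least 1000 FPKM, against 0.665% of all genes. Beside cystatin C, beta-2 microglobulin and C1q, the selenium carrier Selenop had 3063, 2549, 2658 and 1791 FPKM and Rnase4, a secreted ribonuclease, 2463, 2494, 2041 and 1672 FPKM. Both were highest in replicates 1 or 2 and lowest in replicate 4. Rnase4 shares its first exons with the neighbouring ribonuclease gene Ang, so the split of reads between them is uncertain. Ccl12 had 1229, 1403, 3894 and 1229.7 FPKM, with replicate 3 apart. Ccl6, Ccl2 and Ccl9 had 241 ± 48.5, 164 ± 50.5 and 135 ± 32.5 FPKM. Of 25 chemokines 12 reached 10 FPKM, while Ccl22, Cxcl9 and Cxcl13 were listed at 0.

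Complement RNA was led by the first component. The central component C3 had 0, 0.01, 0 and 0.04 FPKM, C4b 0, 1.09, 1.39 and 0.13 FPKM and properdin (Cfp) 0.08, 0.68, 0.1 and 0.32 FPKM. C2, Masp2 and Serping1 were listed at 0 in all 4 libraries. Of 17 measured complement genes 12 were below 1 FPKM on average, against 29.8% of all genes.

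The cytokines were led by Il1a at 588, 486, 744 and 350.0 FPKM, Mif at 359, 439, 159 and 448 FPKM and Il18 at 164, 94.3, 88.9 and 74.9 FPKM. Il1b had 0.5, 1.32, 1.72 and 15.4 FPKM and was below Il1a by at least 22.7 times in each library. Tnf had 24.9, 61.5, 40.5 and 58.6 FPKM and Il6 32.7, 26.2, 39.6 and 7.49 FPKM. Tgfb1 had 2.37, 3.09, 0.22 and 0.82 FPKM, while Tgfbr1 and the TGF-beta activator Nrros (181 ± 44.5 FPKM) were high. Il10, Il1rn, Lif and Tgfb2 were listed at 0 in all 4. Among trophic factors the progranulin gene Grn had 244, 511, 479 and 683 FPKM and prosaposin (Psap) 82.9, 206, 171 and 255 FPKM, both lowest in replicate 1 and highest in replicate 4. Pros1, a bridging ligand of Mertk, had 109.5 ± 27.8 FPKM and Gas6, another, 26.0 ± 4.95 FPKM. Pdgfb had 29.9, 60.9, 79.3 and 129.6 FPKM, and Igf1 0, 0, 0.01 and 0 FPKM. The carriers Apoe and Trf (transferrin) had 81.8, 119, 112 and 204 and 197, 271, 224 and 486 FPKM, both highest in replicate 4 and lowest in replicate 1.

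Lysosomal genes were high, with 54 of 63 at 10 FPKM or more and a median of 85.6 FPKM. Over all genes 36.3% reached 10 FPKM. Below Ctss, cathepsin D (Ctsd) was at 1087, 3051, 1997 and 3522 FPKM, the legumain gene Lgmn at 1267, 2201, 1889 and 2313 FPKM, Ctsb at 908, 1422, 1180.0 and 1261 FPKM and Ctsl at 1180.0, 1213, 1151 and 1111 FPKM. Ctsl was even, while Ctsd was low in replicate 1. Ctsk and Ctse were below 1 FPKM on average, at 0.922 and 0.0075 FPKM. Class I presentation genes H2-K1 and H2-D1 had 430.1, 367, 547 and 351 and 341, 361, 415 and 381 FPKM. Of 10 class II presentation genes 6 had at least 10 FPKM, with a median of 14.3 FPKM. The chains of the peptide exchange factor, H2-DMa and H2-DMb1, had 174 ± 43.9 and 102 ± 52.9 FPKM and those of its modulator, H2-Oa and H2-Ob, 61.2 ± 47.7 and 18.0 ± 5.97 FPKM. The antigen-binding chains H2-Ab1 and H2-Aa had 4.45, 13.99, 15.6 and 8.58 and 1.3, 1, 1.65 and 3.69 FPKM, the invariant chain Cd74 18.1, 36.4, 7.22 and 21.3 FPKM and the class II activator Ciita 0, 0.07, 0 and 0.01 FPKM. The exchange factor chains averaged more than the antigen-binding chains. The class I and class II genes belong to families of similar sequence, so reads may be split among them.

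Iron and redox genes spanned the whole range. Besides ferritin, the oxidase subunit Cyba had 278, 857, 459.9 and 1001 FPKM, low in replicate 1 and high in replicate 4, and its partner Cybb 1.18, 0.35, 0.58 and 0.09 FPKM. The lipid peroxide reductase Gpx4 had 269, 439, 282 and 359 FPKM, Gpx1 535 ± 145 FPKM, and the polyamine enzyme Sat1 1971 ± 418 FPKM. The cystine transporter Slc7a11 had 0.03, 0.54, 0.11 and 0.12 FPKM, the transferrin receptor Tfrc 6.38, 7.05, 4.48 and 0.09 FPKM, and Nqo1 was listed at 0. All 47 oxidative phosphorylation genes had at least 10 FPKM, with a median of 262 FPKM, against 36.3% of all genes. For glycolysis and glucose transport, 14 of 22 genes did, with a median of 26.3 FPKM. Lactate dehydrogenase Ldhb had 534, 608, 719.6 and 709 FPKM and Ldha 88.0, 151, 124 and 187 FPKM, so Ldhb was the higher in all 4. Slc2a5 was above the glucose transporter Slc2a1 (2.89, 18.1, 15.04 and 14.6 FPKM) in all 4. The 50 listed genes of the cytosolic ribosome were all at 10 FPKM or more and held 6.58% ± 0.332 of summed FPKM. Of all 99 genes with symbols of cytosolic ribosomal proteins 86 reached 10 FPKM and 1 was listed at 0 in all 4, and together they held 9.73% ± 0.458. Of 36 ion channel genes 11 reached 10 FPKM, led by the chloride channel Clic1 at 340.1, 557, 282 and 551 FPKM and the calcium channel Orai1 at 26.8, 54.9, 51.0 and 68.1 FPKM.

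Of 25 cell cycle genes 1 reached 10 FPKM, against 36.3% of all genes. That gene was the replication clamp Pcna, at 129.8, 101, 90.4 and 109 FPKM. Mki67 had 0.06, 0.01, 0.86 and 0.22 FPKM, Top2a 0.02, 0, 0 and 0.02 FPKM, and Aurkb, Bub1, Rrm2 and Cdc20 were listed at 0 in all 4. Of 27 genes known for disease-associated microglia 13 reached 10 FPKM. Those included B2m, Fth1, Ctsd, Cd9 (1505 ± 204 FPKM), Ctsb, Cd68 (775 ± 231 FPKM), the lysozyme gene Lyz2 (343 ± 120.0 FPKM), Ccl6, Apoe and the cystatin Cst7 (15.9 ± 4.27 FPKM). The other 14 were below 10 FPKM on average, among them Spp1 at 5.73, 3.35, 5.69 and 11.1 FPKM, Clec7a at 16.4, 2.58, 15.4 and 2.42 FPKM, Itgax at 0.17, 0.13, 2.44 and 0.78 FPKM and Gpnmb at 0.32, 0.17, 0.24 and 0.81 FPKM. Clec7a was high in replicates 1 and 3, Itgax in replicate 3 and Spp1 in replicate 4, so no library was high in all.

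Markers of other cell types were low. Of 145 measured markers 23 (15.9%) had at least 10 FPKM, against 36.3% of all genes, and 33 were listed at 0 in all 4. No neuronal marker of 14 reached 10 FPKM, and the highest was Gad1 at 3.14, 0, 1.62 and 0.13 FPKM. For astrocytes the glutamate transporter Slc1a3 had 62.5, 56.9, 107 and 78.0 FPKM, and the other 10 stayed below 10 FPKM, with Aldoc listed at 0 and Gja1 at 0.005 FPKM. For oligodendrocytes Trf led and Cnp had 5.53, 16.9, 4.69 and 17.8 FPKM, while myelin Mbp averaged 4.97 FPKM and Olig1, Olig2, Sox10, Mobp and Mal were listed at 0. For vessels the basigin gene Bsg had 161, 279.8, 188 and 367 FPKM, Pecam1 averaged 4.64 FPKM and Slco1a4, Ly6c1 and Egfl7 were listed at 0. Bsg is also expressed by many other cell types. For lymphocytes Cd79b had 8.67, 30.7, 50.01 and 39.96 FPKM and Il7r 29.8, 8.93, 29.6 and 21.3 FPKM, and Cd4, Klrb1c, Ebf1 and Blk were listed at 0. Haemoglobin Hbb-bs had 0, 8.94, 2.65 and 33.7 FPKM and Hba-a2 2, 0.34, 14.4 and 36.9 FPKM, highest in replicate 4. In bulk RNA, fewer cells of a type and less RNA per cell cannot be told apart.

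CD45 and CD11b sorting can also pick up other myeloid cells, and their marker lists differed. Over all genes 36.3% reached 10 FPKM. Of 15 dendritic cell markers 6 did. These were Bst2 (118 ± 48.5 FPKM), which the interferon list below also holds, Batf3 (62.1 ± 14.1 FPKM), Klrd1 (38.2 ± 15.1 FPKM), Fscn1 (31.5 ± 8.99 FPKM), Cd74 and H2-Ab1. The dendritic cell factor Zbtb46 and the chemokine receptor Xcr1 averaged 2.56 and 1.83 FPKM, and Flt3 0.02 FPKM. Of 14 neutrophil markers the receptor Csf3r had 64.7, 90.5, 88.2 and 134 FPKM, S100a8 2.79, 0.83, 1.86 and 3.91 FPKM and S100a9 0.69, 0.26, 1.44 and 1.36 FPKM, and Ly6g and Retnlg were listed at 0. Of 19 monocyte markers 2 reached 10 FPKM. Plac8 had 0.11, 0.33, 92.8 and 8.57 FPKM and Lyz1 22.0, 30.2, 44.8 and 37.2 FPKM, with Ly6c2 at 0.46, 0.34, 0.31 and 0.32 FPKM, and Ace and Fcnb were listed at 0. Of 18 border macrophage markers 5 reached 10 FPKM, among them Maf and Apoe, which the microglial lists also hold. The chemokine gene Pf4 had 1.3, 1.17, 52.9 and 3.16 FPKM, Mrc1 4.67, 1.12, 3.55 and 3.04 FPKM, Ms4a7 0.16, 0.26, 0.8 and 0.73 FPKM and Lyve1 0.02, 0, 0.12 and 0 FPKM. Plac8 and Pf4 were high in replicate 3. The summed monocyte and border macrophage markers without Maf and Apoe were 55.7, 81.3, 280.4 and 112 FPKM in replicates 1 to 4, so replicate 3 was the highest. Without Plac8 and Pf4 as well they were 54.3, 79.8, 135 and 100.45 FPKM, while with Maf and Apoe the border macrophage markers alone summed highest in replicate 4, at 407 FPKM against 364 FPKM in replicate 3.

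**Figure D4:**
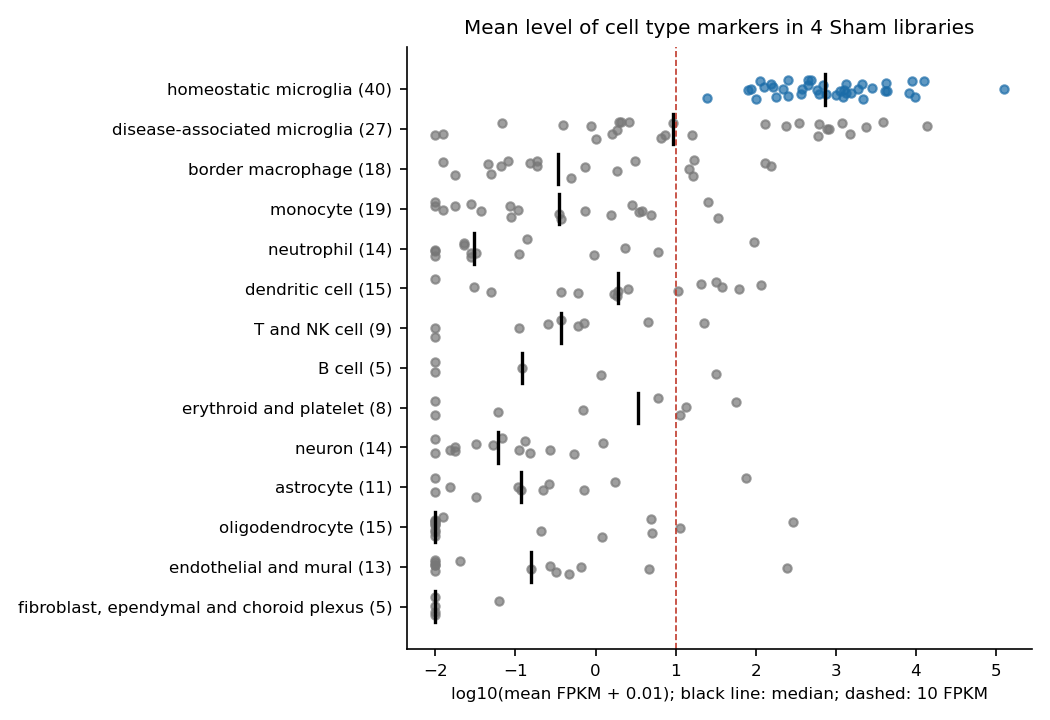
Mean level over the 4 Sham libraries of each marker gene as log10(FPKM + 0.01), 1 point per gene, by cell type list with the number of measured genes in brackets, the median as a black line and 10 FPKM dashed. All 40 homeostatic microglia genes lie to the right of the dashed line and the medians of the other lists lie to its left.

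Y-linked genes were present in all 4 libraries, with Eif2s3y at 103, 125, 66.4 and 88.7 FPKM, Ddx3y at 88.5, 44.5, 54.9 and 39.98 FPKM and Uty at 10.1, 10.6, 13.3 and 7.67 FPKM.

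The relative spread over the 4 libraries was smaller for abundant genes than for rare ones. Across all 13982 genes, Pearson correlations of log2(FPKM + 1) ran from 0.900 between replicates 1 and 4 to 0.935 between replicates 2 and 4, and Spearman correlations from 0.881 to 0.917. Among genes of at least 100 FPKM, Pearson correlations ran from 0.81 between replicates 1 and 4 to 0.944 between replicates 2 and 3. Of the genes of at least 10 FPKM, 65.0% lay within 2-fold between replicates 1 and 4 and 82.7% between replicates 2 and 3. The points of these correlations are genes, not independent replicates. The median gene with a mean of at least 10 FPKM had a coefficient of variation of 0.349. It was 0.635 for means of 1 to 10 FPKM, 0.374 for 10 to 100, 0.249 for 100 to 1000 and 0.194 above 1000. Of 2583 genes with a mean above 0 and below 1 FPKM, 68.8% were listed at 0 in at least 1 library, and 146 genes were at 0 in 1 library and at 10 FPKM or more in another. No gene of the housekeeping, RNA polymerase II core or proteasome core lists was at 0 in any library, although Psmc5, a proteasome ATPase, had 1.12, 49.2, 91.3 and 71.0 FPKM. A 0 in a single library is therefore given as listed at 0 and not as absence.

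The most even genes above 50 FPKM were of mixed function. The signalling adaptor Ywhaz had 136, 138, 132 and 137 FPKM, a coefficient of variation of 1.68%. Itm2b varied by 1.99%, the proteasome subunit Psmb1 (390.3, 376, 372 and 388 FPKM) by 2.41%, and the splicing factor Srrm2 (67.2, 68.5, 69.5 and 71.5 FPKM) by 2.63%. Among microglia-enriched genes Rgs10, a regulator of G protein signalling, varied by 3.04% at 2225, 2360.1, 2362 and 2377 FPKM. Ywhaz is also on the housekeeping list, as is the elongation factor Eef1a1, which varied by 4.69%. The median coefficient of variation of the 20 genes on that list was 0.277. Some usual reference genes on it were less even. Actb spread 1.69 times between its lowest and highest library, Gapdh had 339, 718, 457 and 774 FPKM and Hprt 419.8, 328, 261 and 155 FPKM.

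Replicate 1 and replicate 4 were the least alike, and their difference went with GC content. Genes of at least 1 FPKM were put in 5 groups of 1920 by the GC content of their longest transcript. In the GC-poorest group the median log2 deviation from the mean of the 4 libraries was 0.35 in replicate 1 and -0.22 in replicate 4. In the GC-richest group it was -0.52 in replicate 1 and 0.51 in replicate 4. Replicates 2 and 3 stayed within -0.13 to 0.12 in every group. Among genes of at least 100 FPKM, GC and the log2 difference of replicate 4 from replicate 1 had a Pearson r of 0.642 (950 genes of the same libraries). With the GC trend removed in 20 bins, a setting chosen after seeing the data, the median coefficient of variation was 0.312 in place of 0.349.

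Replicate 3 differed by interferon response genes. Of the 24 listed genes of this response with at least 10 FPKM, 22 were highest in replicate 3, against 1006 of 5071 genes (19.8%) in all. That filter uses replicate 3 itself. By the mean of the other 3 libraries 17 of the genes had at least 10 FPKM and 15 of them were highest in replicate 3, against 17.7% of all genes so filtered. With no filter it was 35 of 40, against 21.7%. The list was chosen after these values were seen, so this is a description. Ifi27l2a had 217, 131, 1479 and 44.0 FPKM, Ifitm3 34.0, 58.2, 467 and 78.9 FPKM and Rtp4 64.5, 105, 321 and 71.7 FPKM. The chemokine Cxcl10 had 32.1, 66.1, 252 and 26.4 FPKM, Ly6a 23.4, 18.0, 159 and 36.2 FPKM and Ifit3 0, 20.6, 73.6 and 4.67 FPKM. In each, replicate 3 was highest, and these genes were among the 15 least even genes above 50 FPKM apart from Ifit3, whose mean was lower. Ly6e, in contrast, was low in replicate 1 at 942, 1844, 1893 and 1929 FPKM and alike in the other 3. The summed list was 1835, 2914, 6006 and 2833 FPKM. Ifnar2, a receptor chain for these interferons, had 128, 209.6, 202 and 180.03 FPKM, lowest in replicate 1. Plac8, Pf4, Lyz1, Ms4a7 and Lyve1 were also highest in replicate 3, whereas Ccr2, Ly6c2 and Mrc1 were highest in replicate 1. Of these, Ms4a7, Lyve1 and Ly6c2 were below 1 FPKM in all 4 libraries. Among markers of at least 10 FPKM, 2 of 2 for monocytes and 2 of 5 for border macrophages were highest in replicate 3. The part of other myeloid cells in the interferon values was not tested.

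Other single genes set libraries apart. Replicate 1 was high in Rgcc, a cell cycle regulator, at 41.0, 0.12, 0 and 0.7 FPKM and in Zfp809, a silencer of retroviral elements, at 48.0, 24.5, 0.08 and 2.21 FPKM. Replicate 2 was high in the galactose enzyme Galm at 3.54, 33.5, 2.37 and 3.11 FPKM. Replicate 4 was high in the small heat shock protein Hspb1 at 0, 6.26, 0 and 54.5 FPKM, S100a4 at 2.03, 2.06, 1.54 and 36.3 FPKM and Nudt22 at 0, 6.42, 0 and 50.03 FPKM. Each library was also set against the mean log2 level of the other 3. Replicate 1 was more than 1 log2 unit below that mean for 14.8% of the 5071 genes of at least 10 FPKM. Replicate 4 was more than 1 log2 unit above it for 12.1%. These were the larger shares among the 4 libraries.

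**Figure D5:**
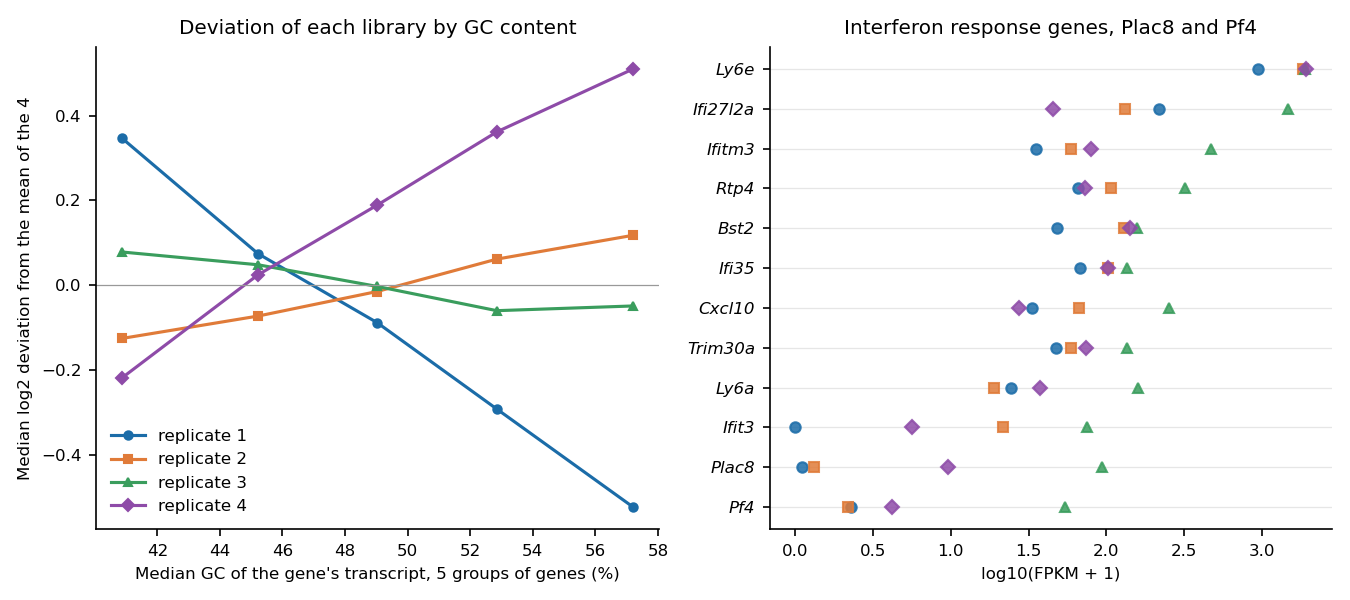
Left, median log2 deviation of each Sham library from the mean of the 4, by 5 equal groups of genes ordered by GC content in percent; right, log10(FPKM + 1) of interferon response genes, Plac8 and Pf4 in each library. Replicate 1 falls from 0.35 to -0.52 and replicate 4 rises from -0.22 to 0.51 with GC, and replicate 3 is the highest library in every row of the right panel apart from Ly6e.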

How the data were processed

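RNA-seq levels of the 4 Sham libraries were used, of 16 libraries in the series. The values deposited by the authors are taken as FPKM, a unit inferred here from the naming of RSEM; TPM of part of the genes cannot be told apart from it by the files. Per the submitters' processing notes, HISAT2, Bowtie2, RSEM 1.3.1 and the build GRCm39.p6 were used; the role of each, the annotation, strandedness and filters are not given in the sources used here. Per the labels' protocols, cDNA was amplified and made into transposon-based, circularized libraries. Such steps can favour transcripts by GC content. All 4 libraries share them, and their part in the differences between libraries was not tested. The table of 13982 genes and the 4 single-library files held identical values to 2 decimals. No counts are given, and whole reads could not be recovered from the low values, so depth is unknown.

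Genes were ranked by mean FPKM, and spread is the SD or coefficient of variation over 4 libraries. Correlations used log2(FPKM + 1). No test between groups was made, since no groups were compared, and Dixon's criterion was used only to single out libraries within genes; an exact two-sided permutation test on 4 pairs could not go below p = 0.125. Whether libraries are separate mice is not given, so the spread may be technical. Genes were grouped in 50 lists, plus 3 chosen after seeing the values (interferon response, RNA polymerase II core, proteasome core). The lists, markers and libraries were chosen with earlier results of these data known. Genes named were, by rule, the 25 highest, up to 8 of each list and its known marks below 1 FPKM in all 4, the 5 markers, the 15 most and 15 least even genes above 50 FPKM, the 5 genes most above the rest in each library, and sex-linked genes. Other members named in the text, such as partners of a named gene, were chosen after their values were seen. Some genes that this rule names are not reported here.

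Transcript length and GC came from the longest GENCODE M21 transcript (GRCm38, another build than the authors'), matched by symbol for 13494 genes and used for no coordinates of the files. Promoters came from RefSeq on GRCm38.p6. Ranking and spread were also computed on simulated libraries of known level, drawn with the same relative spread for every gene and no GC trend. The real libraries differ in both, so the simulation checked the calculation only. Python 3.11.15, pandas 2.3.3, numpy 2.4.6 and matplotlib 3.10.9 were used. Alternatives were other level thresholds, the median for the mean, equal totals, quantile normalization, another pseudocount, transcript-length weights and leaving out each library.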

Additional observations from a re-analysis of the deposited data

Results flagged for a closer look

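In a group of 4 libraries, a library was singled out when its gap to the nearest other was a larger share of the whole range than Dixon's 95% critical value. This was looked at for 299 named genes and 7 library summaries, and chance flags about 1 in 20 groups of values that were not chosen for their spread. Here the rate does not apply as such, since the named genes include by rule the least even ones and those highest in 1 library, and a gene at 0 in the other 3 libraries always meets the criterion. The numbers per library are therefore not compared. There were 34 such cases, all in single genes. No explanation for them was tested.

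Replicate 3 was set apart above the others in 11 genes. Interferon response genes were among them: Ifi27l2a at 1479 FPKM (others at most 217), Ifitm3 at 467 FPKM (at most 78.9), Rtp4 at 321 FPKM (at most 105) and Ly6a at 159 FPKM (at most 36.2). The chemokine Ccl12 was at 3894 FPKM (at most 1403), and the macrophage and monocyte genes Pf4 at 52.9 FPKM (at most 3.16) and Plac8 at 92.8 FPKM (at most 8.57). Near 0 were Nr1h3 at 0.82 FPKM, Lyve1 at 0.12 FPKM, Igf1 at 0.01 FPKM and Siglec1 at 0.01 FPKM.

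Replicate 4 was set apart above in Cx3cr1, the fractalkine receptor, at 1354 FPKM (others at most 893), Nav3 at 36.7 FPKM (at most 21.1), the ATP-gated channel P2rx7 at 64.2 FPKM (at most 31.0) and Il1b at 15.4 FPKM (at most 1.72). The same held for Hspb1 at 54.5 FPKM, Nudt22 at 50.03 FPKM and S100a4 at 36.3 FPKM.

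Replicate 1 was set apart below in Ly6e at 942 FPKM (others at least 1844) and Irf5 at 14.4 FPKM (at least 46.4). It was also below in Rgs10, at 2225 FPKM with the others at least 2360, a small gap in an even gene. It was above in Rgcc at 40.98 FPKM (at most 0.7), Ctsk at 3 FPKM, Nr4a2 at 2.36 FPKM, Ctse at 0.03 FPKM and Gja1 at 0.02 FPKM.

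Replicate 2 was set apart above in Galm at 33.5 FPKM (at most 3.54), Tfec at 0.7 FPKM, Nr4a3 at 0.32 FPKM, Igf2r at 0.19 FPKM, Spic at 0.16 FPKM, Ciita at 0.07 FPKM and Nod2 at 0.05 FPKM, and below in Bhlhe40 at 0 FPKM.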

How the results depend on the processing

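Of 112 alternatives over 17 results, 102 moved the value by less than the spread of the libraries or, for counts, by less than 1.5 times (for a share of genes, within its exact binomial interval). The other 10 were choices of level, scaling, measure or library. For correlations and the median coefficient of variation, the spread used as the limit was the SD over pairs of libraries. A mean over 4 libraries cannot shift by its SD when 1 is left out. Leaving out a library was therefore no check of the share of the 10 largest genes or of the summed monocyte and border macrophage markers. At 5 FPKM in place of 1, 4929 genes passed in all 4 libraries, not 7619, and at 1 FPKM in place of 10, 45 markers of other cell types passed, not 23. Weighted by transcript length, the 10 largest genes held 15.7% in place of 29.1%. The mean pairwise correlation was 0.920, and 0.899 with a pseudocount of 0.1, 0.865 for genes of at least 1 FPKM and 0.898 by Spearman. The median coefficient of variation was 0.349, and 0.456 from 1 FPKM and 0.243 from 100 FPKM; leaving out each library gave 0.294 (without replicate 1) to 0.353. The rank of Siglech, 38 by all 4, was 36 to 41 when a library was left out. Leaving out replicate 3 gave 17 interferon genes of at least 10 FPKM in place of 24, and leaving out others 25. No paired analysis was possible because no groups were compared. Unknown depth limits values near 0, where a 0 may be a gene missed in that library.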

Other observations

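Transporters gave a profile that the lists above cover only in part. Of 235 solute carrier genes 69 had at least 10 FPKM, against 36.3% of all genes. The mitochondrial ADP/ATP carrier Slc25a5 led at 1064 FPKM, followed by the phosphate carrier Slc25a3 at 168 FPKM and the fructose transporter Slc2a5 at 157 FPKM. The iron exporter ferroportin (Slc40a1) had 80.3 FPKM and the phagosomal metal transporter Slc11a1 78.9 FPKM. Of 362 zinc finger genes whose symbols start with Zfp and a digit, 84 reached 10 FPKM. Among these 362, the mRNA-destabilizing relatives Zfp36, Zfp36l1 and Zfp36l2 were the highest at 2603, 364 and 310 FPKM.

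Of 670 predicted gene models 101 reached 10 FPKM, against 36.3% of all genes. Gm20594 stood out at 2544 FPKM, while the next model, 0610010K14Rik, had 226 FPKM. Genes with GC-rich transcripts had lower levels in all: 27.9% of genes in the richest of 5 groups by GC reached 10 FPKM, against 44.6% in the poorest.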
